A study of Mus musculus with 9 samples.

Results

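The genes described here are those that both knockouts of a hepatoma cell line share against its control. A gene was kept when its CPM (counts scaled to the library total) in all 6 knockout samples lay above, or in all 6 lay below, its CPM in the 3 control samples. Of the 53647 genes in the table, 2567 met this rule, 720 on the higher side (1.34%) and 1847 on the lower side (3.44%). They are called shared genes below, and since their CPM values chose them, their distance from control is given as a description without a test.

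The cells are Hepa 1-6, a mouse hepatoma line, and poly(A) RNA was sequenced from 9 samples in 3 groups of 3. Control cells carried a control guide (sgControl). Usp5 knockout cells carried a guide against Usp5 delivered with pLentiCRISPR, and Ythdf1 knockout cells were made with a CRISPR/Cas9 plasmid that also carries EGFP. Both knockouts were grown out from single cells and checked by immunoblot, while the labels do not say whether the control cells are a clone, so loss of the protein, selection of a clone and the delivery of the guide cannot be told apart. Samples are numbered within a group, and nothing in the labels tells whether the cultures were separate, so the spread behind each p-value is that between the samples sequenced and may be technical. The series asks which immune genes respond alike to loss of either protein.

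USP5 is a deubiquitinase that disassembles free polyubiquitin chains, which keeps the pool of ubiquitin available and clears chains that would otherwise occupy the proteasome. YTHDF1 is a cytoplasmic reader of N6-methyladenosine, the most common internal modification of mRNA, and has been linked to translation and decay of the transcripts it binds. The same 3 control samples stand in the comparison of each knockout.

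Libraries held between 24760877 and 42989715 counts. Control replicate 3 stood apart from the other 2 controls: 5.91% of its counts came from the mitochondrial genome, against 2.32% and 2.33%, and its depth was the lowest of the 9. The knockout samples had mitochondrial shares of 3.51% to 6.14%. Leaving out any control makes the rule easier to meet. It kept 1332 higher and 3726 lower genes without control replicate 3. The counts were 965 and 2600 without control replicate 1 and 841 and 2216 without control replicate 2, so the rise was largest without replicate 3. The targets matched the labels, with Usp5 at 251, 242 and 184 CPM in control, 122, 109.53 and 113 in the Usp5 and 226, 192 and 222 in the Ythdf1 knockout. Ythdf1 was at 204, 196 and 195 CPM in control, 198, 190.02 and 214 in the Usp5 and 46.8, 43.8 and 47.5 in the Ythdf1 knockout. Neither target is a shared gene. Hepatoma markers were present, with Alb between 578 and 1326 CPM, and with Afp, Apob, Hnf4a, Krt8 and Krt18 at 155 CPM (Apob) or more in every sample, but Ttr, Apoa1 and Serpina1a, products of mature hepatocytes, were at most 1.21, 0.587 and 2.50 CPM. Of 7 leukocyte markers, 5 stayed under 1 CPM in all samples and Cd3e had 0 counts, and all 5 endothelial markers stayed under 1 CPM. Cd68 was at 3.11 to 8.18 CPM. Of 7 stellate cell and fibroblast markers, 3 stayed under 1 CPM and Lrat had 0 counts, but Dcn was at 916 to 1443 CPM and Pdgfra, itself shared and lower, at 5.30 to 15.7 CPM. Of 6 bile duct markers, 1 (Cftr) stayed under 1 CPM. Krt7 was at 118 to 232, Sox9 at 69.1 to 200 and Spp1 at 147 to 394 CPM.

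How far the shared genes lay from control was described first. Of the 720 higher genes, 669 had enough counts to enter the fit across genes, and of the 1847 lower genes 1604 did. The other 51 and 243 had a median of 0.125 and 0.149 CPM on their higher side. Among all 13661 tested genes, 4.9% were shared and higher and 11.7% shared and lower. The median fitted log2 fold change of the higher genes was 0.51 in the Usp5 knockout and 0.65 in the Ythdf1 knockout, and that of the lower genes was -0.36 and -0.54. At least 2-fold in both lines were 81 higher and 139 lower genes, and 228 and 357 were at least 1.5-fold. Protein-coding genes made up 663 of the higher genes (92.1%) and 1568 of the lower genes (84.9%), and 33 and 163 were long noncoding RNAs. A total of 5 higher genes had 0 counts in the controls, and 41 lower genes had 0 counts in all 6 knockout samples.

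The number of shared genes depended on how libraries were scaled. CPM uses the library total alone, which moved the median pooled log2 fold change of all tested genes to -0.11, whereas TMM scaling, which sets most genes to no change, left it at 0.0011. On TMM-scaled CPM, 1132 genes of the whole table were shared and higher and 1329 shared and lower. Among tested genes the counts were 1060 and 1126, or 7.76% and 8.24%. Nearly all of the higher genes (710 of 720) and 1302 of the 1847 lower genes met the rule on both scales. Log2 fold changes below are from the TMM-scaled fit, levels are plain CPM, and folds or ratios of genes at or near 0 counts are of counts over library totals. The genes at the edge of the rule show how small a margin it accepts. Anapc16, a subunit of the anaphase-promoting complex, was just inside at 51.1, 47.7 and 48.5 CPM in control, 56, 51.9 and 51.1 in the Usp5 and 70.4, 74.6 and 74.9 in the Ythdf1 knockout. Hsf1, the heat shock transcription factor, was just outside at 72, 69 and 83.1 CPM in control, 99.7, 101 and 99.8 in the Usp5 and 88.7, 88.4 and 83.1 in the Ythdf1 knockout, with control replicate 3 level with the lowest Ythdf1 knockout sample. On the lower side the mitochondrial ribosomal protein gene Mrps25 was just inside, with 63.3, 59.9 and 60.6 CPM in control, 51.6, 51.2 and 57.6 in the Usp5 and 59.9, 58.4 and 54.3 in the Ythdf1 knockout. Its fitted log2 fold changes were -0.11 ± 0.075 and 0.05 ± 0.075, so under TMM scaling it was not lower in both lines. The receptor kinase gene Ryk was just outside, with 83.3, 85.9 and 89.6 CPM in control, 65.4, 66.5 and 83.3 in the Usp5 and 54.9, 54.8 and 52.1 in the Ythdf1 knockout. In all, 1580 of the 1604 tested lower genes, and all 669 tested higher genes, had fitted values on the side of the rule in both lines.

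Among the higher genes at 5 CPM or more, ranked by the smaller of the 2 fold changes, the first 12 include a chemokine, an adhesion molecule and several secreted proteins. Cxcl15, a CXC chemokine described in lung epithelium, stood at 6.3, 7.69 and 10.1 CPM in control, 56.1, 58.9 and 76 in the Usp5 and 41.2, 42.4 and 39.1 in the Ythdf1 knockout. Its lowest knockout value was 39.1 CPM and its highest control value 10.1 CPM, and its log2 fold changes were 3.07 ± 0.18 (SE) and 2.50 ± 0.18. Epcam, the epithelial cell adhesion molecule, was at 7.02, 6.96 and 6.22 CPM in control, 21.9, 19.5 and 24.5 in the Usp5 and 17, 16.8 and 17.7 in the Ythdf1 knockout. The lowest knockout sample of Epcam was at 16.8 CPM and the highest control at 7.02 CPM, with log2 fold changes of 1.79 ± 0.095 and 1.49 ± 0.095. Apela, which encodes a peptide ligand of the apelin receptor, was at 6.13, 6.68 and 11.4 CPM in control, 25.9, 44 and 34.8 in the Usp5 and 17.8, 22.2 and 15.5 in the Ythdf1 knockout. The controls of Apela were spread widely, and replicate 3 was the closest to the knockouts. Ihh, the hedgehog ligand Indian hedgehog, was at 14, 14.7 and 13.1 CPM in control, 33.7, 32.1 and 30.2 in the Usp5 and 34, 29.5 and 32.6 in the Ythdf1 knockout, near the same level in both lines (1.28 ± 0.09 and 1.34 ± 0.09 on the log2 scale).

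Ccn2, a matricellular protein also known as CTGF, was the most abundant gene of this group, with 445, 429.69 and 391 CPM in control, 1233, 1086 and 1020.5 in the Usp5 and 898, 922 and 914 in the Ythdf1 knockout. Its log2 fold changes were 1.49 ± 0.092 and 1.25 ± 0.092, and the groups were far from overlapping. Ass1, the urea cycle enzyme argininosuccinate synthase, was at 32.4, 29.6 and 30.01 CPM in control, 68.2, 66.5 and 70.2 in the Usp5 and 111, 104 and 108 in the Ythdf1 knockout, and was higher in the Ythdf1 than in the Usp5 line. Mal, a proteolipid of apical membrane sorting, showed the opposite order, at 3.79, 3.95 and 3.47 CPM in control, 28.5, 27.8 and 31.9 in the Usp5 and 8.25, 7.38 and 7.52 in the Ythdf1 knockout. The class I-like gene H2-Q1 was at 8.38, 10.5 and 6.99 CPM in control, 26.9, 19.5 and 29.1 in the Usp5 and 24.7, 23.2 and 27.4 in the Ythdf1 knockout, but its reads may be shared with near-identical H2-Q genes, so its level is uncertain. All 6 knockout samples of H2-Q1 were at least 19.5 CPM. The same uncertainty holds for Usp17ld, from a tandem family of deubiquitinase genes, with 3.2, 3.14 and 5.49 CPM in control, 8.91, 8.39 and 9.95 in the Usp5 and 15, 14 and 14.6 in the Ythdf1 knockout. Anxa8, a phospholipid-binding annexin, Cables1, an adaptor of cyclin-dependent kinases, and Bex2, a small X-linked adaptor, complete the 12 genes, with log2 fold changes of 1.53 ± 0.15, 1.43 ± 0.16 and 1.23 ± 0.18 in the Usp5 line and 1.57 ± 0.16, 1.62 ± 0.16 and 1.64 ± 0.18 in the Ythdf1 line. Bex2 varied within the Usp5 group, with 123, 98.4 and 69 CPM in the Usp5 knockout.

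Among the lower genes, several were close to absent in both lines. Xlr3c, of an X-linked family first described in lymphocytes, stood at 5.54, 6.86 and 5.21 CPM in the control and had 0 counts in all 6 knockout samples. With a floor of 3 counts over a group, it was at least 194-fold lower in the Usp5 knockout and at least 166-fold lower in the Ythdf1 knockout. Near-identical Xlr3 copies may share its reads. Renbp, an N-acetylglucosamine epimerase, was at 6.54, 5.8 and 4.32 CPM in control, 0.14, 0.17 and 0.0393 in the Usp5 and 0.141, 0.147 and 0.072 in the Ythdf1 knockout. It was thus low to a like extent in both lines, with log2 fold changes of -5.38 ± 0.33 and -5.35 ± 0.34. Plekhb2, an endosomal protein with a pleckstrin homology domain, was at 8.69, 8.92 and 6.83 CPM in control, 0.512, 0.747 and 1.1 in the Usp5 and 0.176, 0.22 and 0.144 in the Ythdf1 knockout. Sardh, the mitochondrial sarcosine dehydrogenase, was at 11, 10.2 and 7.19 CPM in control, 1.14, 0.985 and 1.02 in the Usp5 and 0.176, 0.257 and 0.288 in the Ythdf1 knockout. Both genes were lower in the Ythdf1 than in the Usp5 line, with no overlap between the 2 lines.

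Another 4 genes were lower in the Usp5 line than in the Ythdf1 line. Pmp22, a membrane protein best known from myelin, was at 14.2, 16.1 and 17.5 CPM in control, 0.465, 0.543 and 0.197 in the Usp5 and 3.59, 2.27 and 2.38 in the Ythdf1 knockout. The maltase-glucoamylase gene Mgam was at 12.2, 14.3 and 12.6 CPM in control, 0.442, 1.22 and 1.02 in the Usp5 and 2.01, 2.53 and 2.7 in the Ythdf1 knockout. The secreted semaphorin Sema3g was at 15.8, 16.8 and 9.85 CPM in control, 0.768, 0.272 and 0.393 in the Usp5 and 2.47, 2.35 and 3.49 in the Ythdf1 knockout. In these 3 genes every Usp5 sample was under every Ythdf1 sample. Hpn, the membrane serine protease hepsin of liver, was at 11.5, 9.9 and 6.66 CPM in control, 0.14, 0.034 and 0.118 in the Usp5 and 3.56, 1.76 and 3.28 in the Ythdf1 knockout. Slc38a4, a neutral amino acid transporter of liver, was tightly measured at 38.8, 40.4 and 39.9 CPM in control, 11.1, 10.4 and 12 in the Usp5 and 5.32, 4.95 and 5.4 in the Ythdf1 knockout, with log2 fold changes of -1.75 ± 0.085 and -2.78 ± 0.091. The Ythdf1 line was the lower for Slc38a4, and also for Car8. Car8, a carbonic anhydrase-related protein without enzyme activity, was at 6.94, 7.71 and 8.2 CPM in control, 2.23, 1.56 and 2.68 in the Usp5 and 0.493, 0.587 and 0.324 in the Ythdf1 knockout. Aldh1a2, which makes retinoic acid, was close in both lines at 7.02, 6.08 and 8.72 CPM in control, 1.86, 2.24 and 2.64 in the Usp5 and 2.11, 2.2 and 2.09 in the Ythdf1 knockout. All 24 of these genes met the rule under TMM scaling, which their choice required, and also after a correction for GC content and length.

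**Figure D1:**
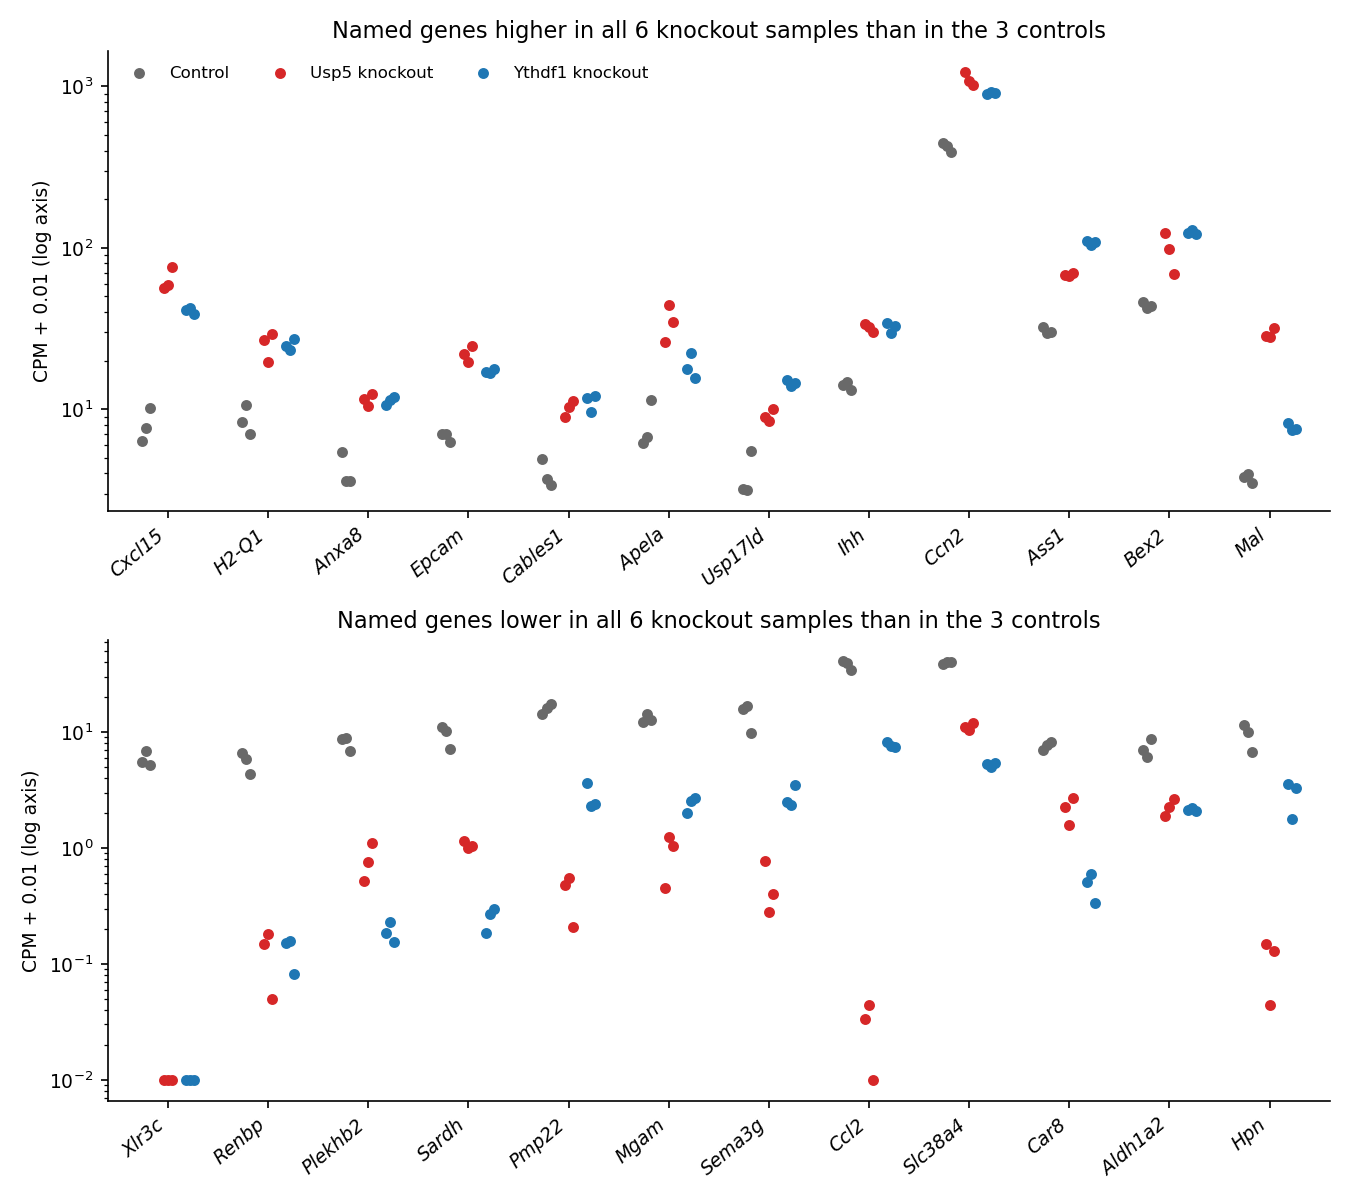
CPM plus 0.01 on a log axis for the 12 higher (top) and 12 lower (bottom) named shared genes; each point is 1 sample, 3 per group. In every gene the 6 knockout points lie on one side of the 3 control points, as the rule requires, and the 6 Xlr3c points and 1 Ccl2 point at the bottom of the axis are samples with 0 counts.

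Promoter sequence was examined as a property that the rule did not use. The windows run from 250 bases before to 50 bases after the first listed start, are from RefSeq on GRCm38.p6, another build than the GRCm39 of the deposited counts, and were matched by symbol for 497 tested higher and 1191 tested lower genes and for 10047 tested genes in all. The 4 windows below belong to genes ranked among the farthest from control in both lines, the first 2 of each direction with a window and a match. Capitals mark motif matches on either strand, and bases are counted from 1 at the 5′ end of the window. Epcam lies at chr17:87635729-87636028 (+) and holds the E-box CACGTG at base 281 and a GC box at base 193 of the window. Apela lies at chr8:65037287-65037586 (-) and holds the TEAD motif GGAATG, read on the other strand, at base 83. Renbp lies at chrX:73930801-73931100 (-) and holds that TEAD motif at base 40 and GC boxes at bases 226 and 238. Plekhb2 lies at chr1:34849709-34850008 (+) and holds it at base 84.
Epcam: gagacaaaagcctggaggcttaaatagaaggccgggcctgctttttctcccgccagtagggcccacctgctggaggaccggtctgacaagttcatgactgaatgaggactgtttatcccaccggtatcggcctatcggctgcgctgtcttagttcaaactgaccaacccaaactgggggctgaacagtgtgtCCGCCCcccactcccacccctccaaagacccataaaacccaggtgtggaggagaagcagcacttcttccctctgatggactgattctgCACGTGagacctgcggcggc
Apela: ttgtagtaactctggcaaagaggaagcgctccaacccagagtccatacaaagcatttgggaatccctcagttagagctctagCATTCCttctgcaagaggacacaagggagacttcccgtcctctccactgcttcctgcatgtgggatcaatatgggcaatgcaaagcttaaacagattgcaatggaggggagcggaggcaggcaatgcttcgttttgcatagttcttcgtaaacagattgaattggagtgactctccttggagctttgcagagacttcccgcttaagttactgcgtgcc
Renbp: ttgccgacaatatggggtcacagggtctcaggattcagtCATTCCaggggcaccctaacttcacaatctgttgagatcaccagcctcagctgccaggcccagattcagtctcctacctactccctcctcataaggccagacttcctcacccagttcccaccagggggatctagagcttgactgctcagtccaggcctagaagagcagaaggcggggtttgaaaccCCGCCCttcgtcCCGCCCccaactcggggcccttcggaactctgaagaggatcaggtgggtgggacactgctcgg
Plekhb2: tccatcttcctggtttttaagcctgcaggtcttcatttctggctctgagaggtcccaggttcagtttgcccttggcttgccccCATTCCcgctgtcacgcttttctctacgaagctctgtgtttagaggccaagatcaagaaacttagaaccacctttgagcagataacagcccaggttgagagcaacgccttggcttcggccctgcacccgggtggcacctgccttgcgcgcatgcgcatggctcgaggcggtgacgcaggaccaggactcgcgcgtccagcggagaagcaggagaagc

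Counted over all windows, no motif set the shared genes far apart from tested genes as a whole. The TEAD motif GGAATG was in 15.5% of higher, 11.2% of lower and 12.1% of all tested promoters. The E-box CACGTG, bound by USF, MITF and TFEB, was in 12.5%, 9.91% and 10.3%. The NF-kB motif (GGGNN followed by TTTCC) was in 1.21%, 2.35% and 1.62%, and the AP-1 motif TGANTCA in 5.84%, 5.29% and 5.33%. The C/EBP-ATF motif TGATGNAA was in 2.62%, 2.18% and 2.17%, and the SP1 GC box GGGCGG in 63.8%, 64.8% and 63.9%. GC content of the windows had a median of 61.3%, 61.7% and 60.7%. A match describes these letters and does not show binding.

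The groups of genes that the shared set draws on were counted next, in 44 lists. Beside many of the counts stands what the pooled fit found, in which the mean of both knockouts was set against control (edgeR quasi-likelihood test, called at an adjusted p under 0.05). Like the fit of each knockout against control, it uses the samples of the rule, so its calls are not independent of the shared counts. The pooled fit called 663 of the 669 tested higher and 1260 of the 1604 tested lower genes. That fit called 4465 of 13661 genes (32.7%), 2163 higher (15.8%) and 2302 lower (16.9%), with a median log2 fold change near 0. With library totals as the scaling, 1283 were higher and 3401 lower, so the share of calls that were higher went from 48.4% to 27.4%. With all 6 knockout samples as 1 group, so that the distance between the lines counts as error, 617 genes were called, 315 higher and 302 lower. The count was 2590 without control replicate 2.

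**Figure D2:**
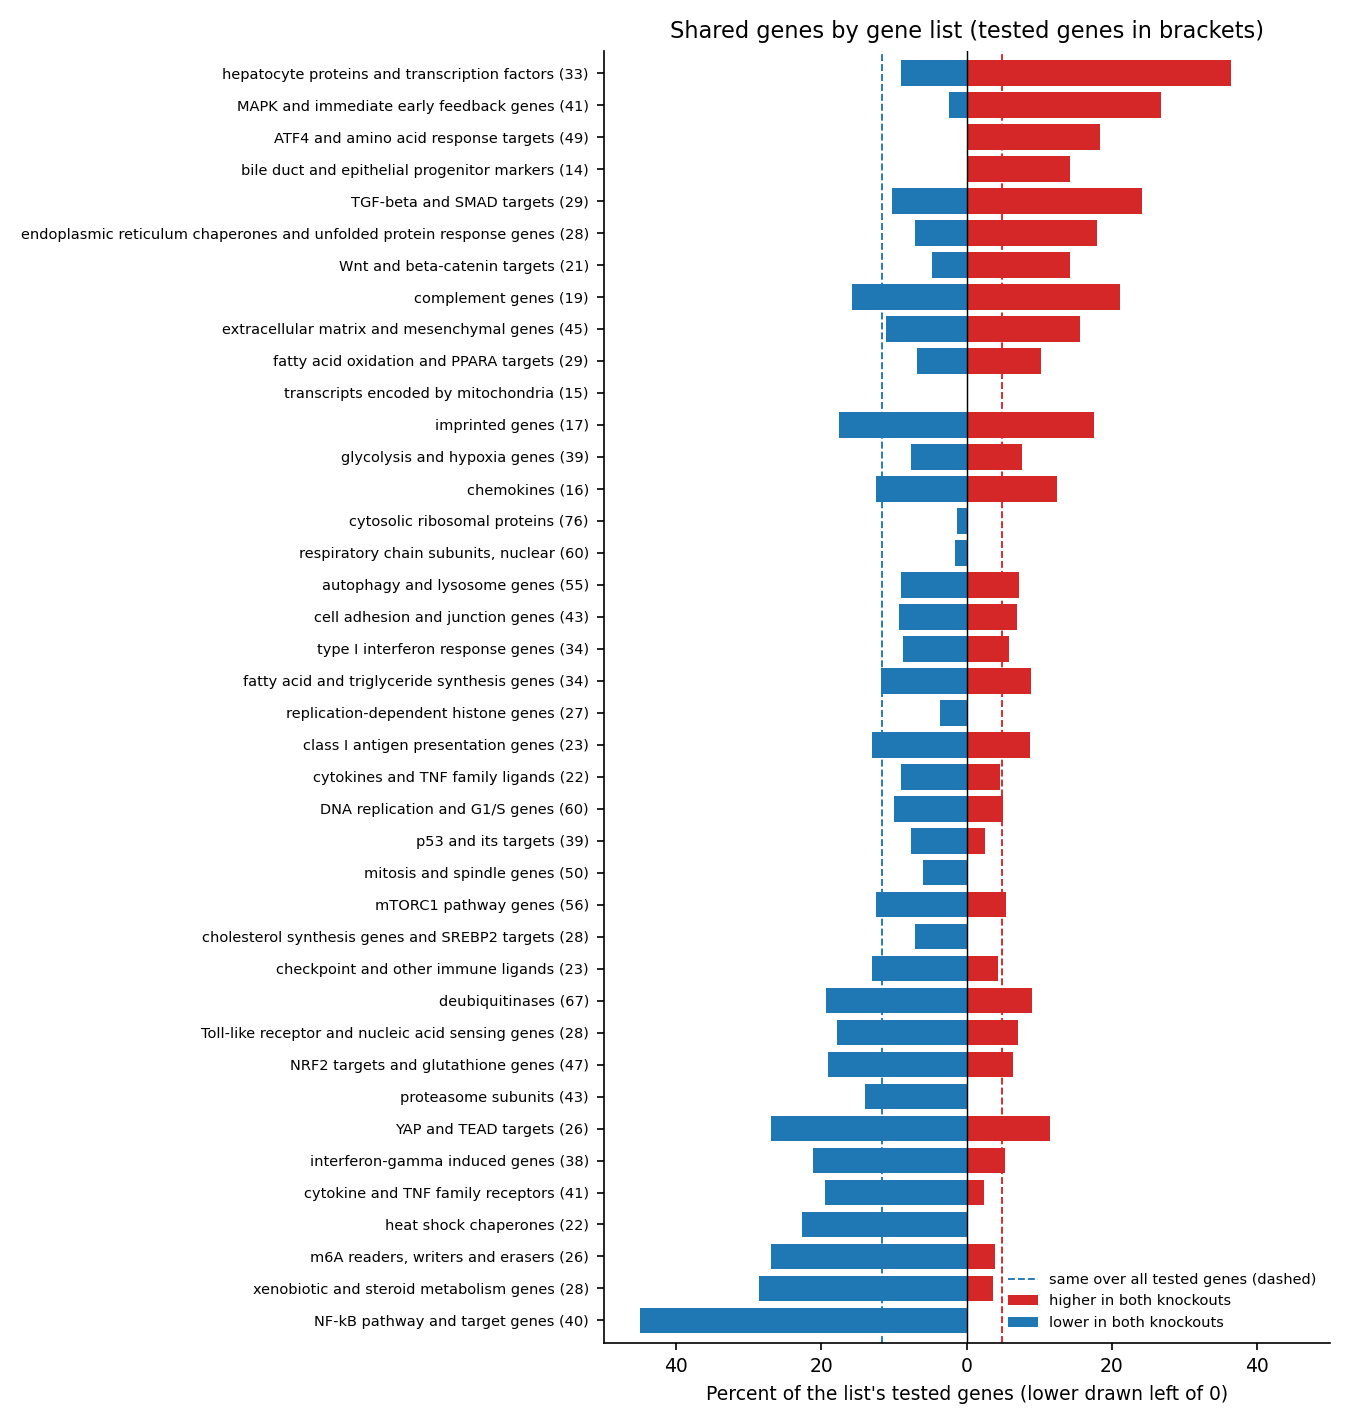
Percent of each list's tested genes that are shared and higher (right) or shared and lower (left), for lists with at least 10 tested genes; the number tested is in brackets and dashed lines mark 4.9% and 11.7%, the values over all tested genes. The hepatocyte list has the longest bar on the right and the NF-kB list the longest on the left.

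NF-kB pathway and target genes had the most shared genes on the lower side. Of 40 tested, 18 were shared and lower and 0 shared and higher, or 45% against 11.7% of all tested genes. The 18 hold the NF-kB subunits Nfkb1 and Rel, the IkB family genes Nfkbia, Nfkbie and Nfkbiz, and the brakes Tnfaip3 and Cyld. They also hold the pathway genes Traf3, Birc2, Birc3, Map3k14 and Ikbke, and the target genes C3, Ccl2, Cxcl5, Ltb, Mmp9 and Vcam1. In the pooled fit 25 were called lower and 3 higher, with a median log2 fold change of -0.49. The lines did not contribute alike: 30 were called lower and 0 higher in the Usp5 knockout, where 9.8% of all tested genes were lower and 9.96% higher (19.8% in all). Over all genes the Usp5 contrast called 2700, and 1736, 1494 and 4371 without control replicate 1, 2 or 3, and 1626 without Usp5 knockout replicate 2. In the Ythdf1 knockout 15 were called lower and 12 higher, where 22.8% and 23.7% of all tested genes were (46.5% in all). The medians were -0.90 and -0.01. Directly between the lines, 30 were lower and 2 higher in the Usp5 knockout. On TMM-scaled CPM 16 of the 40 were shared and lower, and 11 after the GC and length correction.

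The chemokine Ccl2, which draws monocytes, was at 40.7, 39.3 and 34.6 CPM in control, 0.0233, 0.034 and 0 in the Usp5 and 8.21, 7.56 and 7.34 in the Ythdf1 knockout. Over the group it had 2 counts in the Usp5 knockout against 4127 in control, a ratio of 1900 in CPM (95% counting interval 525 to 15700). Cxcl5, which draws neutrophils, was at 27.1, 29.4 and 34.5 CPM in control, 3.54, 3.33 and 3.93 in the Usp5 and 13, 12.7 and 12 in the Ythdf1 knockout. Complement C3, the hub of the complement cascade, was at 289, 284 and 273 CPM in control, 6.79, 6.69 and 6.57 in the Usp5 and 195, 198 and 199 in the Ythdf1 knockout, so that it is shared although the Ythdf1 line is at a log2 fold change of -0.37 ± 0.065. Ltb, lymphotoxin beta, was at 11.4, 10.2 and 6.42 CPM in control, 0.233, 0.408 and 0.315 in the Usp5 and 4.79, 3.93 and 3.96 in the Ythdf1 knockout. Ltb in the Ythdf1 line was between 3.93 and 4.79 CPM, and in the Usp5 line at most 0.408 CPM. The TNF family ligand Tnfsf15 was at 1.6, 2.11 and 1.74 CPM in control, 0.116, 0.136 and 0.118 in the Usp5 and 0.81, 1.14 and 0.9 in the Ythdf1 knockout. In these 5 genes every Usp5 sample lay under every Ythdf1 sample. Vcam1, an adhesion molecule for leukocytes, was at 25.9, 25.2 and 28.6 CPM in control, 13.3, 14.5 and 14.9 in the Usp5 and 18.7, 19 and 19.9 in the Ythdf1 knockout, and after the GC and length correction it no longer met the rule.

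Of 16 tested chemokines 2 were shared and higher (12.5%) and 2 shared and lower (12.5%), against 4.9% and 11.7% of all tested genes. The lines went apart. In the Usp5 knockout 10 were called lower and 2 higher, with a median of -1.58, where 9.8% and 9.96% of all tested genes were. In the Ythdf1 knockout 3 were called lower and 9 higher, with a median of 0.62, where 22.8% and 23.7% of all tested genes were. The pooled fit called 9 lower and 2 higher, against 16.9% and 15.8% of all tested genes. Cxcl17, a mucosal chemokine, joined Cxcl15 on the higher side at 0.358, 0.201 and 0.565 CPM in control, 2.58, 2.21 and 1.81 in the Usp5 and 1.27, 1.36 and 1.4 in the Ythdf1 knockout. Of 41 tested cytokine and TNF family receptors, 8 were shared and lower (19.5%, against 11.7% of all tested genes). Among them were both interferon-gamma receptor chains (Ifngr1 and Ifngr2), the shared interleukin-6 receptor chain Il6st, Il13ra1, Il20rb and Tnfrsf9. Il2rb, a chain of the interleukin-2 receptor, was at 6.4, 5.28 and 5.49 CPM in control, 1.88, 1.32 and 1.34 in the Usp5 and 2.29, 2.02 and 1.8 in the Ythdf1 knockout. Tnfrsf11b, the decoy receptor osteoprotegerin, was at 2.12, 2.16 and 1.94 CPM in control, 0.465, 0.272 and 0.551 in the Usp5 and 0, 0.0367 and 0.072 in the Ythdf1 knockout, with 3 counts over the Ythdf1 group against 223 in control, a ratio of 58.2 (95% counting interval 19.7 to 285). After the correction 5 receptors were shared and lower and 4 shared and higher.

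Interferon genes were split. Of 38 tested interferon-gamma induced genes, 8 were shared and lower (21.1%) and 2 shared and higher (5.26%), against 11.7% and 4.9% of all tested genes. The counts went to 3 and 5 after the GC and length correction, so no direction holds for this list. The pooled fit called 14 lower and 4 higher, with a median of -0.21, against 16.9% and 15.8% of all tested genes. In the Usp5 knockout 17 were called lower and 4 higher, with a median of -0.42, where 9.8% and 9.96% of all tested genes were. In the Ythdf1 knockout 3 were called lower and 9 higher, with a median of 0.05, where 22.8% and 23.7% were. Between the lines, 22 were lower and 4 higher in the Usp5 knockout, against 25.2% and 23.3% of all tested genes. Wars, the tryptophanyl-tRNA synthetase, was at 130.13, 124 and 104 CPM in control, 162, 142 and 155 in the Usp5 and 226, 216 and 231 in the Ythdf1 knockout. Gbp6, a guanylate-binding protein whose reads may be shared with its copies, was at 1.6, 1.91 and 1.7 CPM in control, 0.326, 0.442 and 0.118 in the Usp5 and 0.458, 0.734 and 1.19 in the Ythdf1 knockout. Of 34 tested type I interferon response genes, 3 were shared and lower (8.82%) and 2 shared and higher (5.88%). Oasl1, an inhibitor of Irf7 translation, was at 9.95, 9.17 and 9.01 CPM in control, 3.84, 3.43 and 3.7 in the Usp5 and 1.16, 1.03 and 1.26 in the Ythdf1 knockout. Samd9l, an antiviral factor, was at 13.1, 14.1 and 15.8 CPM in control, 5.79, 7.17 and 8.62 in the Usp5 and 3.74, 3.6 and 2.34 in the Ythdf1 knockout. Oasl1 and Samd9l were lowest in the Ythdf1 line. Isg20, an antiviral exonuclease, was at 6.78, 7.14 and 7.92 CPM in control, 17.7, 18.4 and 16.8 in the Usp5 and 12.3, 12.2 and 11.2 in the Ythdf1 knockout. Usp18, which removes ISG15 and restrains the interferon receptor, was at 49.4, 50.2 and 39.7 CPM in control, 59.5, 52.7 and 64.3 in the Usp5 and 68.3, 67.4 and 70.3 in the Ythdf1 knockout. Ifih1, the RNA sensor MDA5, was at 5.78, 7.14 and 6.87 CPM in control, 4.21, 3.63 and 4.96 in the Usp5 and 3.49, 3.82 and 3.6 in the Ythdf1 knockout.

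Genes of antigen presentation and immune checkpoints were shared in shares near those of all tested genes (4.9% higher and 11.7% lower). Of 23 tested class I genes, 2 were shared and higher (8.7%), H2-T23 and the chaperone Calr, and 3 shared and lower (13%), against 3 and 1 after the GC and length correction. Of 23 tested checkpoint and other immune ligands, 1 was shared and higher (4.35%) and 3 shared and lower (13%), against 3 and 4 after it. H2-T23, a ligand of inhibitory NK receptors, was at 27.6, 25.4 and 17.6 CPM in control, 34, 31 and 29.98 in the Usp5 and 30.3, 30.5 and 32.4 in the Ythdf1 knockout. On the lower side were the chaperone Canx, Cd1d1 and Hfe, of which Cd1d1 was near 1 CPM. B2m, the light chain, at 524, 543 and 897 CPM in control, 688, 855 and 675 in the Usp5 and 831, 887 and 791 in the Ythdf1 knockout, overlapped between control and knockouts, and its control replicate 3 was the highest of all 9 samples. H2-D1 also overlapped, and neither passed the pooled test (adjusted p = 0.161 and 0.274). H2-K1 had at most 0.072 CPM in any sample, and whether this reflects the cells or the annotation behind the counts was not tested. Cd274, which encodes PD-L1, was not a shared gene. It was at 14.9, 16.2 and 17 CPM in control, 14.4, 15.7 and 17.3 in the Usp5 and 21.4, 26.5 and 23.9 in the Ythdf1 knockout, so the Ythdf1 knockout alone lay above control. Its pooled log2 fold change of 0.39 ± 0.098 passed (adjusted p = 0.0131) but not without control replicate 1 or 2 (0.061 and 0.0602). Nt5e, the adenosine-producing enzyme CD73, was shared and lower at 3.22, 3.42 and 3.07 CPM in control, 0.372, 0.034 and 0.275 in the Usp5 and 0.282, 0.624 and 0.432 in the Ythdf1 knockout. The NKG2D ligand Ulbp1 was at 54.4, 58.7 and 54.4 CPM in control, 41.9, 41.1 and 46.4 in the Usp5 and 39.2, 43 and 36.8 in the Ythdf1 knockout. The poliovirus receptor Pvr, a ligand of TIGIT and CD226, was shared and higher, at 97.2, 98.7 and 114 CPM in control, 118, 126 and 124 in the Usp5 and 139, 144 and 132 in the Ythdf1 knockout.

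Of the other immune lists, Toll-like receptor and nucleic acid sensing genes had 28 tested members. Of these, 2 were shared and higher (7.14%), Irak2 and Irak3, and 5 shared and lower (17.9%), and 2 and 2 after the correction. Complement genes had 4 and 3 of 19 (21.1% and 15.8%). Over all tested genes the shares were 4.9% and 11.7%. Clu, the chaperone clusterin, was at 1504, 1400.3 and 1888 CPM in control, 2419, 2667 and 2471 in the Usp5 and 2695, 2821 and 2619 in the Ythdf1 knockout. Masp1, a lectin pathway protease, was at 31.8, 30.9 and 31.9 CPM in control, 54.7, 57.8 and 62.5 in the Usp5 and 45.1, 48.1 and 43.7 in the Ythdf1 knockout. C1ra, a classical pathway protease, was lower, at 38, 39 and 47.6 CPM in control, 27.3, 30.6 and 29.9 in the Usp5 and 25.2, 26.3 and 24.5 in the Ythdf1 knockout. Acute phase genes had 1 of 9 tested (11.1%) on each side. Lbp, which binds lipopolysaccharide, was shared and higher at 26.9, 26.8 and 28.4 CPM in control, 46.9, 43.4 and 44.2 in the Usp5 and 62.1, 63.4 and 68.3 in the Ythdf1 knockout. Cp, the copper carrier ceruloplasmin, was shared and lower at 19.9, 20.3 and 22.5 CPM in control, 4.58, 4.18 and 5.04 in the Usp5 and 14.3, 15.6 and 16.4 in the Ythdf1 knockout. The single leukocyte marker among the shared genes, Lyz2, was between 0.81 and 1.58 CPM in all samples. The summed level of the leukocyte list was at 14.2 to 16.6 CPM in control, 11 to 12 in the Usp5 and 15.6 to 17.0 in the Ythdf1 knockout, with 8 of its 24 genes at 0 in every sample. In bulk RNA, fewer cells of a type and less RNA per cell cannot be told apart, and a part of such cells in these values was not tested.

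Hepatocyte proteins and transcription factors were the list with the most shared genes on the higher side: 12 of 33 tested, or 36.4% against 4.9% of all tested genes, with 3 lower. The pooled fit called 20 higher and 4 lower, with a median of 0.53, against 15.8% and 16.9% of all tested genes. After the GC and length correction 14 were shared and higher and 2 shared and lower. In the Usp5 knockout 12 were called higher and 6 lower, where 9.96% and 9.8% of all tested genes were. In the Ythdf1 knockout 20 were called higher and 1 lower, where 23.7% and 22.8% were. Between the lines, 18 were lower and 5 higher in the Usp5 knockout, against 25.2% and 23.3% of all tested genes. Among transcription factors, Hnf4a, a master regulator of hepatocyte genes, was at 239, 227 and 217 CPM in control, 312, 301 and 307 in the Usp5 and 284, 276 and 282 in the Ythdf1 knockout. Foxa2, Foxa3 and the bile acid receptor Nr1h4 were also higher. Among plasma proteins were Alb, Apoa2, Apoe, Fetub, Serpind1 and Apoa5. Alb, the main plasma protein, was at 588, 578 and 691 CPM in control, 817, 940.27 and 1033 in the Usp5 and 1131, 1326 and 1105 in the Ythdf1 knockout. Apoa5, a regulator of triglycerides, was at 0.811, 0.98 and 0.565 CPM in control, 1.88, 2.48 and 1.34 in the Usp5 and 2.15, 1.47 and 1.76 in the Ythdf1 knockout. On the lower side were the pioneer factor Foxa1, Nr5a2 and Tat. Nr5a2, a regulator of bile acid synthesis, was at 15.1, 15.7 and 19.3 CPM in control, 2.4, 2.51 and 3.03 in the Usp5 and 7.79, 9.54 and 8.42 in the Ythdf1 knockout. Nr5a2 in the Usp5 line was at most 3.03 CPM. Tat, tyrosine aminotransferase, was at 2.2, 2.01 and 2.14 CPM in control, 0.0698, 0.034 and 0.0787 in the Usp5 and 1.44, 1.65 and 1.44 in the Ythdf1 knockout. Nr5a2 and Tat were both farther from control in the Usp5 line.

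Of 14 tested bile duct and epithelial progenitor markers, 2 were shared and higher (14.3%, against 4.9% of all tested genes) and 0 shared and lower. The pooled fit called 5 higher and 2 lower, with a median of 0.05, against 15.8% and 16.9% of all tested genes. In the Usp5 knockout 6 were called higher and 4 lower, where 9.96% and 9.8% of all tested genes were. In the Ythdf1 knockout 4 were called higher and 3 lower, where 23.7% and 22.8% were. Krt19, a keratin of bile duct cells, was at 1.81, 1.56 and 1.37 CPM in control, 7.47, 6.86 and 7.55 in the Usp5 and 2.15, 2.09 and 1.98 in the Ythdf1 knockout, so that the Ythdf1 line was only slightly over control, and it did not meet the rule after the correction. Itgb4, the integrin of hemidesmosomes, was at 108, 93.7 and 84.4 CPM in control, 189, 176 and 184 in the Usp5 and 161, 153 and 166 in the Ythdf1 knockout. Jup, plakoglobin, was at 324, 298 and 311 CPM in control, 401, 402 and 384 in the Usp5 and 459.55, 429.74 and 465 in the Ythdf1 knockout. Of the adhesion list, 43 genes were tested, with 3 shared and higher (6.98%) and 4 shared and lower (9.3%), and 6 and 4 after the correction. Cdh16, a cadherin of kidney epithelium, was at 2.36, 2.24 and 1.9 CPM in control, 0.116, 0.034 and 0.197 in the Usp5 and 0.141, 0.257 and 0.108 in the Ythdf1 knockout. Among clustered protocadherins, 6 of 7 tested Pcdhb genes were shared and lower, and 3 after the correction.

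MAPK and immediate early feedback genes were shared and higher in 11 of 41 tested members (26.8%) and shared and lower in 1 (2.44%). Over all tested genes the shares were 4.9% and 11.7%. The pooled fit called 25 higher and 2 lower, with a median of 0.38, against 15.8% and 16.9% of all tested genes. After the GC and length correction 14 were shared and higher. In the Usp5 knockout 13 were called higher and 4 lower, where 9.96% and 9.8% of all tested genes were. In the Ythdf1 knockout 26 were called higher and 3 lower, where 23.7% and 22.8% were. Between the lines, 26 were lower and 5 higher in the Usp5 knockout, against 25.2% and 23.3% of all tested genes. The 11 were the AP-1 subunits Fos, Fosb, Jun, Jund and Maff, the factors Etv4, Klf2 and Ier2, the phosphatases Dusp8 and Dusp10, and the EGF receptor ligand Areg. Areg was at 49.2, 49.9 and 59 CPM in control, 94.8, 96.8 and 105 in the Usp5 and 200.09, 223 and 209 in the Ythdf1 knockout. Dusp10, which acts on p38 and JNK, was at 20.2, 20.4 and 25.8 CPM in control, 34.1, 40.01 and 38.7 in the Usp5 and 40.8, 45.4 and 39.99 in the Ythdf1 knockout. Ier3, an early response gene that is also an NF-kB target, was the 1 lower gene, at 83.6, 83.2 and 71.3 CPM in control, 21.8, 20.2 and 23.2 in the Usp5 and 52.4, 51.4 and 54.5 in the Ythdf1 knockout.

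Of 29 tested TGF-beta and SMAD genes, 7 were shared and higher (24.1%) and 3 shared and lower (10.3%), against 4.9% and 11.7% of all tested genes. Tgfbi, a matrix protein induced by TGF-beta, was at 1.24, 1.21 and 0.848 CPM in control, 3.79, 4.08 and 3.93 in the Usp5 and 3.63, 4.48 and 5.26 in the Ythdf1 knockout, and Fst, Bmp4, Inhbb, Acvr1 and Eng were also higher. The receptors Tgfbr1 and Tgfbr2 and the activin subunit Inhba were lower, with Tgfbr1 at 31.5, 35.4 and 33.6 CPM in control, 16, 17 and 20.3 in the Usp5 and 18.4, 18.8 and 15 in the Ythdf1 knockout. YAP and TEAD targets were split, with Ccn1, Ccn2 and Igfbp3 higher (11.5%) and 7 of 26 lower (26.9%), and 5 higher and 3 lower after the correction. Igfbp3, which binds insulin-like growth factors, was at 503, 489 and 588 CPM in control, 1002, 984 and 1023 in the Usp5 and 716, 779.97 and 727 in the Ythdf1 knockout. Among Wnt targets, Nkd1, a feedback inhibitor, was at 244, 234 and 268 CPM in control, 703, 711 and 657 in the Usp5 and 343, 338 and 340.12 in the Ythdf1 knockout. The transcription factor Sp5 was at 249, 223 and 249 CPM in control, 389, 412 and 341 in the Usp5 and 339, 321 and 341 in the Ythdf1 knockout. Nkd1 was higher in the Usp5 line than in the Ythdf1 line in all samples. Tbx3, a transcription factor of hepatoblasts, was shared and lower at 140.18, 136 and 151 CPM in control, 63.2, 62.7 and 61.5 in the Usp5 and 77.4, 82.3 and 81.1 in the Ythdf1 knockout.

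Extracellular matrix genes went both ways, with 7 of 45 shared and higher (15.6%) and 5 shared and lower (11.1%). Over all tested genes these shares were 4.9% and 11.7%, so on CPM only the higher share stood above that background. After the GC and length correction 9 were shared and higher and 5 shared and lower, against 8.35% and 6.82% of all tested genes. Higher were Thbs1, thrombospondin 1, at 567, 566 and 584 CPM in control, 1269, 1343 and 1434 in the Usp5 and 958, 1017 and 969.52 in the Ythdf1 knockout, and Fn1, Bgn, Lamc1, Mmp14, Timp2 and the transcription factor Snai1. Lower were the collagens Col12a1, Col15a1, Col18a1 and Col6a3 and the basement membrane protein Nid2. Col12a1 was at 9.43, 7.66 and 11 CPM in control, 2.05, 1.7 and 2.24 in the Usp5 and 3.42, 2.94 and 2.59 in the Ythdf1 knockout. Nid2 had 0 counts in the Usp5 knockout against 124 in control, which with that floor of 3 counts is at least 38.0-fold lower. In the Ythdf1 knockout Nid2 was detected in 1 sample, at 0.141, 0 and 0 CPM.

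Targets of ATF4, the transcription factor of the amino acid response, were shared and higher in 9 of 49 tested members (18.4%, against 4.9% of all tested genes) and shared and lower in 0. The pooled fit called 39 higher and 0 lower, with a median of 0.62, but the 2 lines differed. In the Ythdf1 knockout, where 23.7% of all tested genes were higher, 44 were called higher and 0 lower, with a median of 1.05. In the Usp5 knockout, where 9.96% of all tested genes were higher and 9.8% lower, 10 were called higher and 4 lower, with a median of 0.11. Between the lines, 45 were lower in the Usp5 knockout and 0 higher, against 25.2% and 23.3% of all tested genes. The 9 were the transporters Slc1a4 and Slc6a9, the proline synthesis enzymes Aldh18a1 and Pycr1, the synthetases Nars and Wars, Chac1, Gdf15 and Jdp2. Slc1a4, a transporter of neutral amino acids, was at 55.3, 54.9 and 51.2 CPM in control, 86.6, 91.7 and 104 in the Usp5 and 169.92, 168 and 177 in the Ythdf1 knockout. The count of shared and higher members was 17 on TMM-scaled CPM and 21 after the GC and length correction.

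Among protein quality control genes, 5 of 28 endoplasmic reticulum genes were shared and higher (17.9%) and 2 shared and lower (7.14%). Over all tested genes the shares were 4.9% and 11.7%. The higher genes were Atf6, Calr, Ern1, Herpud1 and Syvn1, and the lower genes Canx and Dnajc10. Atf6, a sensor of unfolded protein, was at 138, 146 and 167 CPM in control, 170.16, 187 and 207 in the Usp5 and 197, 221 and 199.95 in the Ythdf1 knockout. Heat shock chaperones were shared and lower in 5 of 22 (22.7%), or 4 after the correction, and higher in 0 by CPM or 3 after the correction. Cryab, a small heat shock protein, was at 8.62, 9.35 and 10.5 CPM in control, 4.16, 4.45 and 3.62 in the Usp5 and 5.88, 5.8 and 5.26 in the Ythdf1 knockout. Hspa4l, a nucleotide exchange factor, was at 43, 49.1 and 51.6 CPM in control, 32.8, 31.1 and 38.1 in the Usp5 and 23.8, 27.4 and 22.7 in the Ythdf1 knockout. Proteasome subunits had 6 of 43 shared and lower (14%, against 11.7% of all tested genes). Psme4, a proteasome activator, was at 95, 111 and 101 CPM in control, 63.9, 71.4 and 88.6 in the Usp5 and 47.5, 52.1 and 42.5 in the Ythdf1 knockout. Psmd1, a scaffold of the regulatory particle, was at 290.02, 313 and 287 CPM in control, 222, 203 and 257 in the Usp5 and 153, 170.33 and 158 in the Ythdf1 knockout. The pooled fit called 5 proteasome subunits lower and 3 higher, against 16.9% and 15.8% of all tested genes. In the Usp5 knockout 5 were called lower and 1 higher, with a median of -0.18, where 9.8% and 9.96% of all tested genes were. In the Ythdf1 knockout 5 were called lower and 11 higher, with a median of 0.16, where 22.8% and 23.7% were. Between the lines, 19 were lower and 5 higher in the Usp5 knockout, against 25.2% and 23.3% of all tested genes.

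Relatives of both targeted genes were examined. Of 67 tested deubiquitinases, 6 were shared and higher (8.96%) and 13 shared and lower (19.4%), against 4.9% and 11.7% of all tested genes. After the GC and length correction the counts were 7 and 3. Usp14, a deubiquitinase of the proteasome, was at 128, 142 and 123 CPM in control, 81.6, 86.7 and 99.5 in the Usp5 and 56.1, 60.7 and 58 in the Ythdf1 knockout, and remained shared after the correction. Stambpl1, which cleaves K63-linked chains, was higher at 54.7, 54.6 and 67.9 CPM in control, 102, 123 and 121 in the Usp5 and 71.4, 83.8 and 77.4 in the Ythdf1 knockout. Of 26 tested m6A readers, writers and erasers, 7 were shared and lower (26.9%) and 1 higher (3.85%), and 3 and 2 after the correction. The 7 were Alkbh5, Fto, Igf2bp1, Mettl16, Virma, Ythdf3 and Zcchc4. Mettl16, a methyltransferase for U6 RNA and the Mat2a transcript, was at 79.9, 83.9 and 82.5 CPM in control, 49.7, 49.2 and 54.6 in the Usp5 and 46.2, 50.6 and 51.3 in the Ythdf1 knockout. Mettl3, the catalytic subunit of the main writer, was at 21.6, 22.1 and 20.6 CPM in control, 23.6, 22.7 and 24.9 in the Usp5 and 29.9, 26.9 and 29.3 in the Ythdf1 knockout. Median GC content of the tested genes was 46.6% for the deubiquitinase list and 44.6% for the m6A list, under the 49.59% of all tested genes.

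Growth and cell cycle lists differed in how many shared genes they held. mTORC1 pathway genes had 3 of 56 shared and higher (5.36%) and 7 shared and lower (12.5%), and 6 and 3 after the GC and length correction. Irs2, an insulin receptor substrate, was at 91.3, 89.5 and 90.3 CPM in control, 113, 116 and 111 in the Usp5 and 142, 145 and 141 in the Ythdf1 knockout. Rictor, which defines mTORC2, was at 70.1, 76.1 and 76.4 CPM in control, 48.2, 51.7 and 60.9 in the Usp5 and 39.4, 44.6 and 38.4 in the Ythdf1 knockout. Mitosis genes had 0 of 50 shared and higher and 3 shared and lower (6%), including Plk4, the centriole kinase, at 45.7, 53.5 and 49.998 CPM in control, 34.1, 39.3 and 41.6 in the Usp5 and 24.3, 26.3 and 23.8 in the Ythdf1 knockout. DNA replication and G1/S genes had 3 and 6 of 60 (5% and 10%), and 8 and 3 after the correction. For these and the mTORC1 list no direction holds. Among them was the CDK inhibitor Cdkn2c, at 44.2, 42.9 and 27.5 CPM in control, 20.5, 16.8 and 19 in the Usp5 and 20.3, 16 and 20.4 in the Ythdf1 knockout. Ribosomal protein genes had 0 and 1 of 76 and nuclear respiratory chain genes 0 and 1 of 60, both under the 11.7% of all tested genes that were lower. Of 39 tested p53 targets, the desmosome gene Perp was shared and higher, at 161, 164 and 159.77 CPM in control, 259, 239 and 259.73 in the Usp5 and 247, 258 and 256 in the Ythdf1 knockout, and 3 were lower, and 4 and 1 after the correction.

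Metabolic lists held shared genes of both directions, beside 4.9% higher and 11.7% lower of all tested genes. Of 28 tested xenobiotic and steroid metabolism genes, 8 were shared and lower (28.6%) and 1 higher, against 2 and 2 after the correction. Abcb1b, a multidrug efflux pump, was at 96.4, 101 and 101 CPM in control, 45.9, 45.7 and 55.7 in the Usp5 and 64.7, 70.8 and 63 in the Ythdf1 knockout. Cyp1a1, the aryl hydrocarbon receptor target, was shared and higher, at 56, 57.7 and 35.9 CPM in control, 97.1, 86.9 and 103 in the Usp5 and 139, 127 and 143 in the Ythdf1 knockout. NRF2 targets and glutathione genes had 9 of 47 shared and lower (19.1%), 6 after the correction, and 3 higher (6.38%). Gstk1, a mitochondrial and peroxisomal glutathione transferase, was at 4.1, 5.48 and 3.47 CPM in control, 0.326, 0.374 and 0.551 in the Usp5 and 0.211, 0.183 and 0.252 in the Ythdf1 knockout. The iron store Fth1 was at 1533, 1463 and 1532 CPM in control, 2145, 1799 and 1580.3 in the Usp5 and 2403, 2446 and 2415 in the Ythdf1 knockout. Lipid genes were also of both directions. Of 34 synthesis genes, 3 were shared and higher (8.82%) and 4 lower (11.8%), and 5 and 3 after the correction. The lipid chaperone Fabp4 was at 2.72, 2.97 and 2.02 CPM in control, 1.02, 1.26 and 0.984 in the Usp5 and 0.141, 0.257 and 0.216 in the Ythdf1 knockout. The pantetheinase Vnn1 was at 9.86, 10.7 and 10.6 CPM in control, 0.954, 1.39 and 0.865 in the Usp5 and 4.33, 5.25 and 4.18 in the Ythdf1 knockout. Dgat2, the last step of triglyceride synthesis, was at 5.87, 5.45 and 3.11 CPM in control, 7.16, 6.15 and 6.26 in the Usp5 and 15.9, 14.8 and 16.4 in the Ythdf1 knockout. Dgat2 was higher in every Ythdf1 than in every Usp5 sample. Pparg, a regulator of lipid storage, was higher at 10.1, 10.9 and 13.1 CPM in control, 16.2, 17.7 and 18.9 in the Usp5 and 18.7, 20.5 and 20.7 in the Ythdf1 knockout. Of 39 glycolysis and hypoxia genes, 3 were shared and higher (7.69%) and 3 lower (7.69%). Bnip3, a mitophagy receptor induced by hypoxia, was at 36.7, 39 and 38.9 CPM in control, 21.2, 19.5 and 25.2 in the Usp5 and 6.06, 6.35 and 7.16 in the Ythdf1 knockout. The imprinted gene Impact, an inhibitor of GCN2, was at 24, 26.9 and 23.3 CPM in control, 7.37, 8.9 and 9.25 in the Usp5 and 14.5, 16.5 and 14 in the Ythdf1 knockout.

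Shared genes were then compared between the lines, a contrast without the control samples. Of the tested higher genes 267 (39.9%) differed between the Usp5 and the Ythdf1 knockout, and of the lower genes 628 (39.2%), against 48.5% of all tested genes (edgeR quasi-likelihood test, called at an adjusted p under 0.05). The median size of the log2 difference was 0.23 and 0.27, against 0.39 over all tested genes. A gene with its lines on opposite sides of control cannot meet the rule, so the background holds genes that the rule leaves out. Where a difference was called, the Ythdf1 line was the farther from control for 197 of the 267 higher and 461 of the 628 lower genes, and the Usp5 line for 70 and 167.

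The 4 widest differences per direction at 5 CPM or more are given here. Ciart, a circadian repressor, was at 4.1, 3.79 and 4.4 CPM in control, 6.51, 5.94 and 6.57 in the Usp5 and 51.6, 53.2 and 52.9 in the Ythdf1 knockout, a difference of -3.11 ± 0.096 on the log2 scale (Usp5 minus Ythdf1 knockout; edgeR quasi-likelihood test, adjusted p = 1.54e-08). The glutathione-degrading enzyme Chac1 was at 6.85, 6.31 and 5.69 CPM in control, 10.4, 7.13 and 7.28 in the Usp5 and 56.7, 51.2 and 60.2 in the Ythdf1 knockout, a difference of -2.80 ± 0.15 (edgeR, adjusted p = 5.9e-07). Slc6a9, a glycine transporter, was at 8.9, 7.09 and 6.91 CPM in control, 10.3, 10.8 and 11 in the Usp5 and 71.4, 69 and 72.5 in the Ythdf1 knockout, a difference of -2.79 ± 0.1 (edgeR, adjusted p = 4.95e-08). Ciart, Chac1 and Slc6a9 were between 5.94 and 11 CPM in the Usp5 knockout. Gdf15, a stress cytokine, was at 46.5, 44.6 and 32.8 CPM in control, 68.1, 68.1 and 65.5 in the Usp5 and 250.48, 227 and 268 in the Ythdf1 knockout, a difference of -1.94 ± 0.11 (edgeR, adjusted p = 1.09e-06). These 4 genes on the higher side were all farther from control in the Ythdf1 line. On the lower side, Ccl2 differed by -8.37 ± 0.25, C3 by -4.94 ± 0.079 and Hpn by -4.83 ± 0.45, all farther from control in the Usp5 line (edgeR, adjusted p = 1.36e-08, 1.81e-10 and 2.2e-05). Cand2, an exchange factor for cullin ligases in muscle, went the other way at 12.4, 10.6 and 10.5 CPM in control, 8.14, 7.68 and 7.59 in the Usp5 and 0.176, 0.367 and 0.216 in the Ythdf1 knockout, a difference of 4.88 ± 0.21 (edgeR, adjusted p = 1.51e-07).

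At the other end, many of the genes named here did not pass the test between the lines, and 6 of them, chosen after their values were seen, serve as examples. The difference was -0.032 ± 0.54 for Renbp, 0.002 ± 0.20 for Aldh1a2, -0.059 ± 0.087 for Ihh, -0.057 ± 0.15 for H2-Q1, -0.033 ± 0.15 for Anxa8 and -0.032 ± 0.11 for Tgfbr1 (edgeR, adjusted p = 0.978, 0.995, 0.601, 0.777, 0.871 and 0.833). The standard errors show how closely each is known, and a missed threshold does not show equal levels. Xlr3c had 0 counts in both lines and allows no fold between them.

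**Figure D3:**
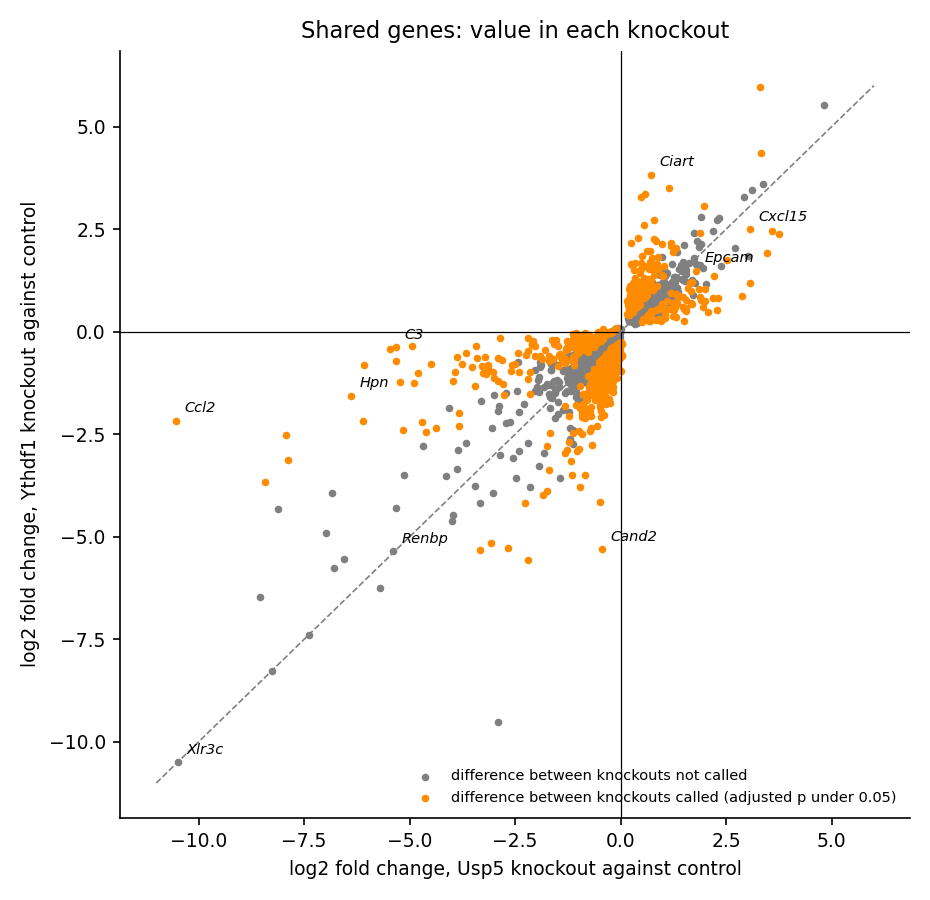
Fitted log2 fold change against control in the Usp5 knockout (x) and the Ythdf1 knockout (y) for the tested shared genes; each point is a gene, orange where the difference between the lines was called, and the dashed line marks equal values. Nearly all points fall in the upper right and lower left because the rule requires it, the position of genes at 0 counts such as Xlr3c depends on the prior count, and Ccl2, C3, Hpn and Cand2 stand far from the dashed line.

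Transcript composition, which the rule did not use, differed between the 2 directions. Median GC content of the longest transcript was 53.7% for higher, 46.2% for lower and 49.6% for all tested genes, and median gene length was 2202, 3158 and 2419 bases. From the lowest to the highest decile of GC content the share of tested genes that were shared and higher went from 0.879% to 10.4%, and the share that were lower from 16.8% to 3.44%, with the highest lower share, 20.4%, in the next-to-lowest decile. By length, the lower share went from 2.71% in the shortest to 21.4% in the longest decile, and the higher share from 4.39% to 3.29%. GC also varied between libraries of one group: genes of the lowest GC decile deviated by -0.013, 0.113 and 0.339 on the log2 scale from the mean over samples in the controls, by -0.086, 0.063 and 0.14 in the Usp5 knockout and by -0.232, -0.042 and -0.267 in the Ythdf1 knockout. Every Ythdf1 sample lay below every control.

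When a smooth trend on GC content and on length was removed from each library, an alternative chosen after the data were seen, 1141 tested genes were shared and higher (8.35%) and 932 shared and lower (6.82%). The shares then ran from 7.47% to 8.79% and from 7.47% to 5.35% between the end deciles of GC content. A trend with length was left: from the shortest to the longest decile the higher share went from 3.51% to 10.4% and the lower share from 4.02% to 9.88%. Of the tested shared genes, 484 higher (72.3%) and 780 lower (48.6%) still met the rule. Besides Vcam1 and Krt19, named genes that no longer met it include Isg20, Gbp6, Cp, Ulbp1, Canx, Dnajc10, Sp5, Snai1, Pdgfra and Lyz2. Syvn1, Cd1d1 and Mrps25 missed it after the correction and on TMM-scaled CPM. The part of GC content and length in the counts before the correction was not tested further.

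**Figure D4:**
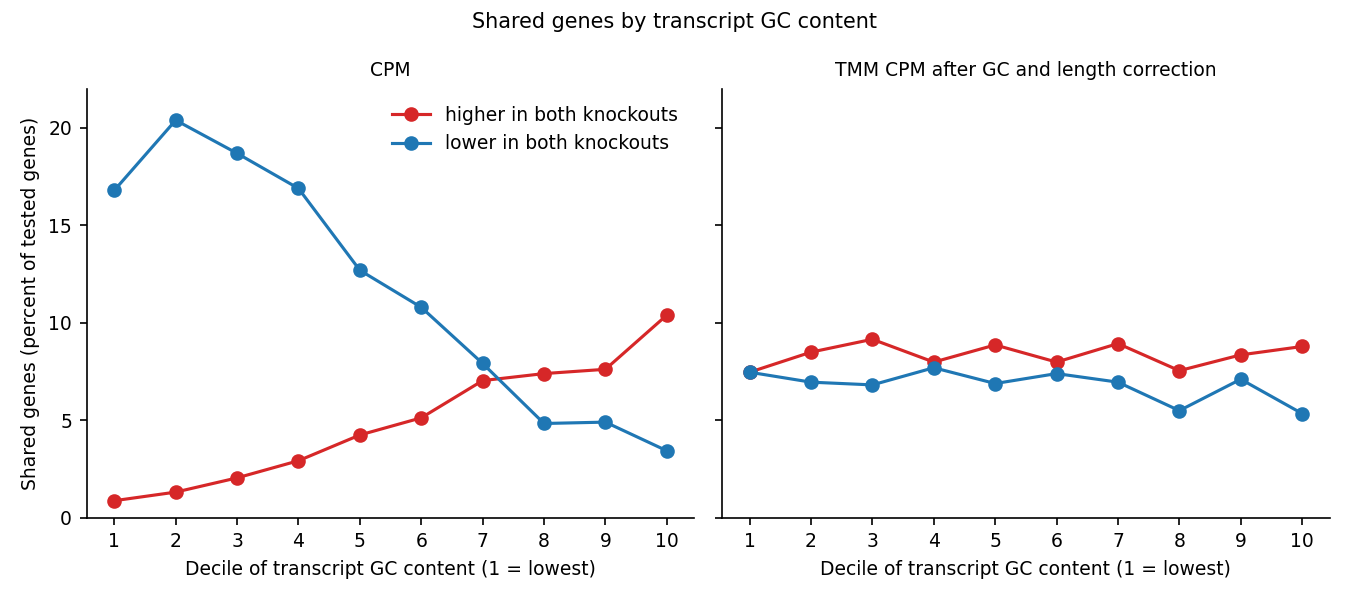
Percent of tested genes that are shared and higher (red) or shared and lower (blue) in each decile of genes by transcript GC content, on CPM (left) and on TMM-scaled CPM after removal of GC and length trends (right). On CPM the higher share goes from 0.879% to 10.4% and the lower share from 16.8% to 3.44%, and after the correction both stay between 5.35% and 9.16%.

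Position in the genome was described last. On chromosome 16, 6.19% of tested genes were shared and higher and 2.97% shared and lower, and after the correction 13.1% and 0.99%, the lowest share of lower genes of any chromosome. On chromosome 11 these were 3.66% and 16.9%, and after the correction 4.94% and 12.7%, and on chromosome 9 they were 2.22% and 17.8%, and 3.92% and 11.1%. After the correction, chromosomes 9 and 11 had the lowest shares of higher genes of the 20 chromosomes tested. Runs of at least 4 adjacent tested genes that were all shared numbered 1 on the higher side and 14 on the lower side, but 3 and 3 after the correction. The run of 6 was Pcdhb16 to Pcdhb22 on chromosome 18, and another on that chromosome held Thoc1, Usp14, Rock1 and Greb1l. After the correction the protocadherin run was gone, and a run from Usp14 to Esco1 was left. Gene copy number was not measured, and its part in these values was not tested.

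**Figure D5:**
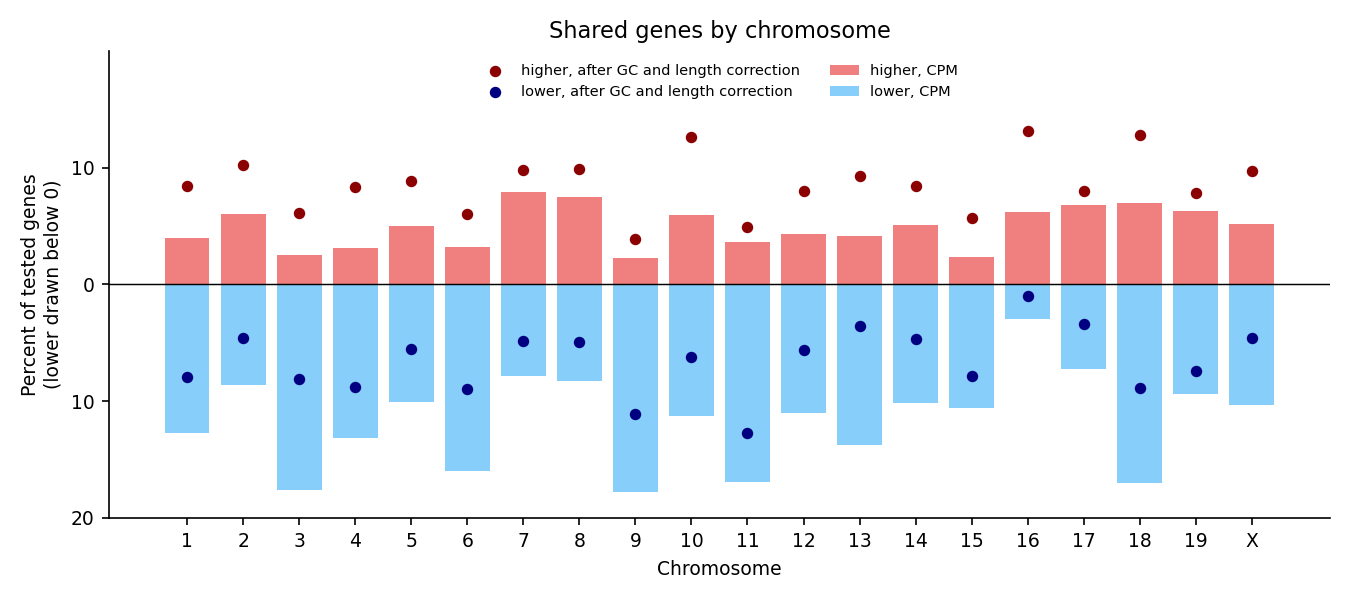
Percent of tested genes on each chromosome that are shared and higher (bars above 0) or shared and lower (bars below 0) on CPM, with dots for the same after the GC and length correction. Chromosome 16 has the highest dot above 0 (13.1%) and the smallest share below it (0.99%), and chromosome 11 has the longest distance below 0 after the correction (12.7%).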

How the data were processed

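Poly(A) RNA of 9 samples was sequenced. The deposited table holds estimated counts per gene, written by the authors as whole numbers, and the deposited gene lengths were used in bases (unit: other). fastp 0.23.2, STAR 2.7.10a, Salmon 1.9.0 and GRCm39 are named per the submitters' processing notes, without roles; the annotation, and whether counting used strand, are not given in the sources used here. Overlapping genes and near-identical copies can therefore share reads.

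CPM was the count scaled to the column total. The rule for shared genes used strict inequality on these values. Counts were fitted with edgeR 4.0.16 in R 4.3.3 over all 9 samples: TMM scaling, filterByExpr, glmQLFit and glmQLFTest, with Benjamini-Hochberg adjustment over 13661 tested genes and a threshold of 0.05. Contrasts were the mean of both knockouts against control, each knockout against control, and one knockout against the other. The pooled contrast was also run on simulated counts in which a known set of genes had been changed. The members, the 44 lists and the alternatives were chosen with earlier results of these data known.

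Named genes were both targets; the 12 shared genes per direction with the largest value of the smaller fold change, at 5 CPM or more on the higher side and shared under both scalings; up to 2 per list and direction at 1 CPM or more; the 4 per direction that differed most between the lines; 2 just inside and 2 just outside the rule; and markers with Cd274, B2m, H2-K1 and H2-D1. Other list members are named without values, and some genes that these rules select are not reported here. GC content was that of the longest transcript in GENCODE M21, matched by identifier for 13642 of 13661 genes. The added correction removed a spline on GC content and on log length (5 degrees of freedom each) per library. Alternatives included RLE scaling, DESeq2 1.42.0, other filters, a replicate block, 1 group for all knockouts and each sample left out. Intervals and floors cover counting error only.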

Additional observations from a re-analysis of the deposited data

Results flagged for a closer look

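Of the shared genes named for it, 8 differed between both knockouts by the test of that difference (edgeR quasi-likelihood test on Usp5 minus Ythdf1 knockout, Benjamini-Hochberg adjusted over 13661 genes). On the higher side the log2 differences were -3.11 for Ciart, -2.80 for Chac1, -2.79 for Slc6a9 and -1.94 for Gdf15, and each was higher in all 3 Ythdf1 than in all 3 Usp5 knockout samples. On the lower side they were -8.37 for Ccl2, -4.94 for C3 and -4.83 for Hpn, each lower in all 3 Usp5 than in all 3 Ythdf1 samples, and 4.88 for Cand2, lower in all 3 Ythdf1 samples. The 8 genes were picked as the widest differences, so their sizes are those of a selected set.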

How the results depend on the processing

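Shared genes numbered 720 higher and 1847 lower. Higher genes were 1132 on TMM-scaled CPM, 1131 on RLE-scaled CPM, 210 with a gap of at least 1.2-fold and 1141 after the GC and length correction, which was added after the data were seen and covers tested genes. Lower genes were 565 with the 1.2-fold gap and 932 after that correction. Without 1 sample, higher genes ranged from 786 to 1332 and lower genes from 1943 to 3726, with the largest counts without control replicate 3; a rule over fewer samples is easier to meet.

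The pooled contrast called 4465 genes, 617 with the 6 knockout samples as 1 group and 626 with a 2-fold limit. After the GC and length correction it called 4198, of which 3185 were among the 4465. Without 1 sample, counts ranged from 2590 to 4880 for the pooled contrast, from 1494 to 4371 for the Usp5 knockout, from 4848 to 6479 for the Ythdf1 knockout and from 5002 to 7648 between the knockouts. Samples of the same number did not deviate together more than others did (correlations from -0.257 to 0.298, against -0.333 to 0.345). Trends on GC content that differ between libraries could hide a pairing, so whether the numbers mark pairs is not settled. With a replicate block 4207, 2346, 6198 and 6458 genes were called. Of the named genes, the pooled log2 fold change of Mrps25 was 0.098 and that of Ktn1 0.00018 after the correction, against -0.03 and -0.26; the cause was not tested. Pooled calls that ended without control replicate 2 include Trim8, Ucp2, Syvn1 and Gnas. For genes under about 1 CPM, depth limits the fold.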
